A study of Mus musculus with 6 samples.

Results

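The mitochondrial carrier family is a set of genes for proteins that move metabolites, nucleotides, cofactors and ions across the inner mitochondrial membrane. They were described in mouse ileal organoids given all-trans retinoic acid, a vitamin A derivative that acts through nuclear receptors. The members were the rows of the count table whose symbol is Slc25a followed by a number, or is Ucp1, Ucp2, Ucp3, Mpc1 or Mpc2. There were 47 such rows among 21534. The table lists 5 further genes of this description under older symbols, matched by gene ID (Mpc1 as Brp44l, Mpc2 as Brp44, Slc25a51 as Mcart1, Slc25a53 as Mcart6 and Slc25a54 as 4930443G12Rik). Their values are given beside those of the 47 and are not counted among them.

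Bulk polyadenylated RNA was sequenced, with a directional kit, from epithelial cultures known as enteroids, which were grown from the ileum of C57Bl/6 mice of wild type. The labels give the cells as intestinal stem cells; markers of stem cells and of each differentiated epithelial type were measured in both groups. Every culture first spent 96 hours with 10 µM CHIR99021, which inhibits GSK3 and so keeps Wnt signalling on and stem cells abundant. There were 3 libraries of enteroids given 10 µM all-trans retinoic acid for 24 hours and 3 of enteroids given DMSO vehicle for 24 hours. The labels do not say whether the libraries of a group came from separate mice or cultures, so p-values measure the spread between these libraries, which may be technical.

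Carriers of this family are built from 3 repeats of a common fold and usually exchange one substrate for another. Through them ADP and phosphate reach the ATP synthase, fatty acids reach beta-oxidation as acylcarnitines, and citrate and aspartate leave for use in the cytosol. The pyruvate carrier, made of Mpc1 and Mpc2, has another fold but serves the same membrane. In the absorptive epithelium of the ileum these routes link mitochondrial fuel use to lipid and amino acid handling.

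Retinoic acid libraries held 15080190 to 21833846 counted reads and vehicle libraries 14919144 to 16927696. The defining markers of intestinal epithelium (Epcam, Cdh1, Vil1, Cdx2, Krt8, Krt18, Krt19 and Cldn7) summed to 11461 to 12331 CPM with retinoic acid and 11494 to 12163 CPM with vehicle, where CPM is reads per 1000000 of the scaled library. With retinoic acid, fibroblast and muscle markers summed to 0.455 to 1.63 CPM, endothelial markers to 0.707 to 2.03 CPM, neuron and glia markers to 4.88 to 6.72 CPM and immune markers, mostly Csf1r, to 23.3 to 26.2 CPM. With vehicle, the sums of these lists were 0.867 to 2.07, 1.62 to 2.78, 5.92 to 7.17 and 21.8 to 25.9 CPM in the same order. No marker was at 0 in all 6 libraries. Other marker lists moved with treatment: 10 of 12 cell cycle genes and 5 of 8 stem cell genes were lower with retinoic acid, and none of either list was higher. By the same rule, given below, 4.09% of all tested genes were lower and 5.37% higher. Cell cycle markers summed to 461 to 523 CPM with retinoic acid and 656 to 722 CPM with vehicle, and stem cell markers to 1288 to 1389 CPM with retinoic acid and 1962 to 2056 CPM with vehicle. Enterocyte markers summed to 1798 to 3116 CPM with retinoic acid and 2513 to 3445 CPM with vehicle, with 3 of 14 higher and 2 lower. With retinoic acid, goblet markers summed to 4907 to 5421 CPM, Paneth to 4935 to 5233 CPM, enteroendocrine to 904 to 1131 CPM and tuft to 19.7 to 23.2 CPM. With vehicle, these sums were 4656 to 5219, 5426 to 5856, 853 to 1198 and 19.7 to 25.9 CPM in the same order. Of 8 goblet markers 1 was higher and 2 lower, with a median log2 fold change of −0.21. The higher one, Clca1, had 783 ± 97.3 CPM with retinoic acid and 104 ± 14.9 CPM with vehicle (SD, n = 3 each). It raises the goblet sum with retinoic acid. Of 7 tested Paneth markers 1 was higher and 1 lower. Of 8 enteroendocrine and of 7 tested tuft markers 0 were higher and 1 lower in each list. The part of these changes in the carrier results was not tested, and fewer cells of a type cannot be told apart from less RNA per cell in bulk samples.

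Of the 47 carrier genes 39 had enough reads to be tested, and 5 were higher and 3 lower with retinoic acid. The higher ones were Slc25a20, Slc25a4, Ucp2, Slc25a24 and Slc25a10, and the lower ones were Slc25a48, Slc25a23 and Slc25a42. A gene was called at a Benjamini-Hochberg adjusted p under 0.05 over all 13700 tested genes in edgeR's quasi-likelihood test. By this rule 9.46% of all tested genes were called, 5.37% higher and 4.09% lower, against 20.5% of the tested carriers. These shares were not matched for read depth, which affects how readily a gene is called. The same holds for the other lists set beside the share of all genes. The tested carriers had a median log2 fold change of 0.03, and all tested genes −0.008. The 3 libraries of one group lay wholly above those of the other in 15 carriers (38.5%) and in 25.5% of all tested genes. None of the 4 tested genes under older symbols was called in edgeR, at an unadjusted p under 0.05, in DESeq2 or in limma-voom. The number of carriers called higher was 3 without retinoic acid library 1, and the number called lower was 1 without retinoic acid library 2 or without vehicle library 2. With the replicate number as a block, more carriers were called in both directions, as given at the end.

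Start regions of 3 members are shown for the strongest increase, the increase in an ADP/ATP carrier whose close relative was not called, and a decrease in a gene whose close relative increased. Each line is the 250 bases before the RefSeq gene start in GRCm38.p6, 5′ to 3′ on the gene's strand. Capitals mark the GC box core GGGCGG or its reverse complement CCGCCC.
Slc25a20: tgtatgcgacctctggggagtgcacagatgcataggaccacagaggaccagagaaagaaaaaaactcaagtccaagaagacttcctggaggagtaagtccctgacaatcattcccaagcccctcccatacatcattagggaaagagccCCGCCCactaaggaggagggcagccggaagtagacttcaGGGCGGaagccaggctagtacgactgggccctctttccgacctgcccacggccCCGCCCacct
Slc25a4: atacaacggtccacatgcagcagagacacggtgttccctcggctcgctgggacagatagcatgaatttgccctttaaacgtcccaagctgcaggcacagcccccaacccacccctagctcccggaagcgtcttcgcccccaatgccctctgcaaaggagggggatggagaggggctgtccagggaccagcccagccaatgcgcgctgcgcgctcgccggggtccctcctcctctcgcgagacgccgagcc
Slc25a23: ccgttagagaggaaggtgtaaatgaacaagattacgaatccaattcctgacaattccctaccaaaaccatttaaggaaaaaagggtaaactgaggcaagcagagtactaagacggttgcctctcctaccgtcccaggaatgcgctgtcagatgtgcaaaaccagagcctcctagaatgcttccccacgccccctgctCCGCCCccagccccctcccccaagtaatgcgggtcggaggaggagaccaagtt
That of Slc25a20 lies at chr9:108661886-108662135 on the plus strand, that of Slc25a4 at chr8:46211063-46211312 on the minus strand and that of Slc25a23 at chr17:57059864-57060113 on the minus strand. RefSeq starts Slc25a20 and Slc25a4 further into the gene than the count table does, so part of the first window and most of the second lie within the gene as the table gives it. The GC box core occurred 3 times before Slc25a20, 0 times before Slc25a4 and 1 time before Slc25a23. It was found on either strand in 27 of 41 carrier genes with a listed start region (65.9%), and in 32.7% of 32851 such regions of all genes. Each carrier gave 1 region, the one nearest its start in the count table. The 32851 are all listed regions, whether or not the gene was tested here, so the sets are unlike. Of the 8 called carriers 6 had it. The nuclear receptor half-site letters AGGTCA, or TGACCT on the other strand, were in 6 of the 41 and in 14.0% of all regions, and in 0 of the 8 called carriers. The motifs were searched as exact letters and do not overlap each other. A match is a description of these windows only.

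**Figure D1:**
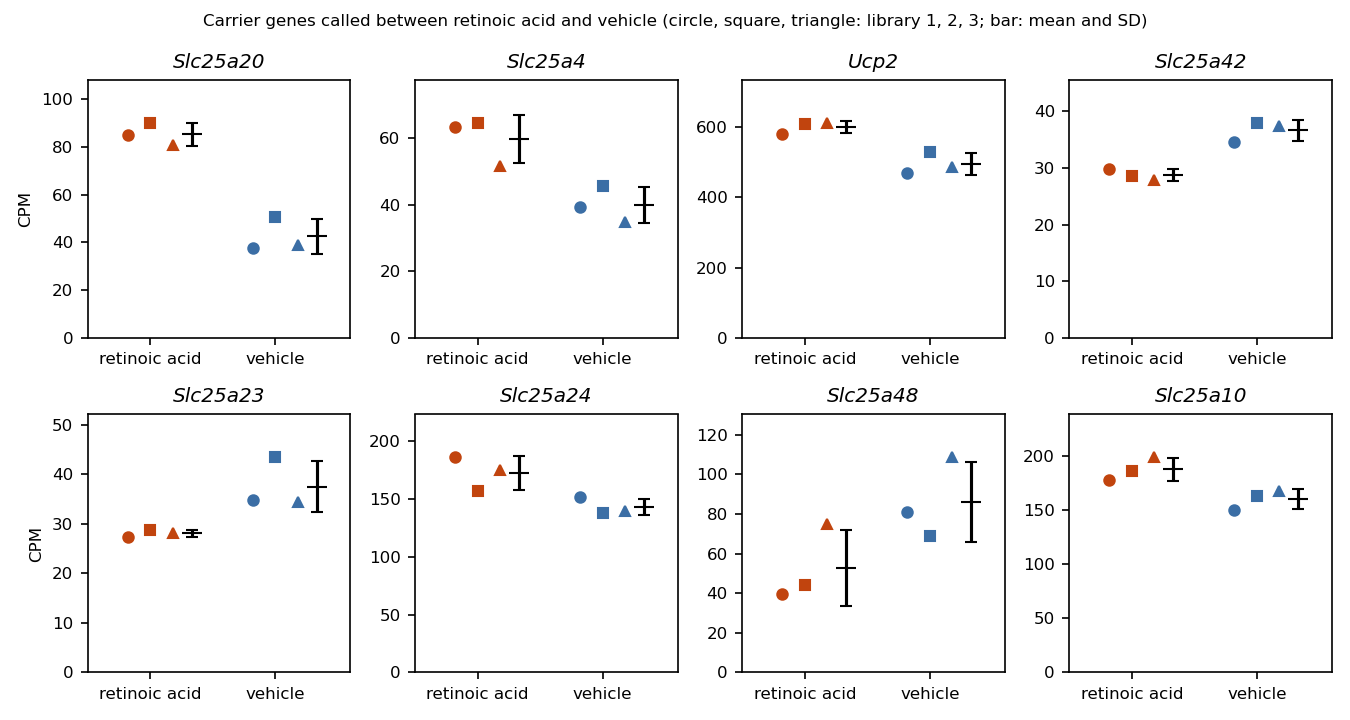
CPM of the 8 called carrier genes in each library, retinoic acid in red and vehicle in blue, with circle, square and triangle for libraries 1, 2 and 3, the mean and SD as a black bar and the axis from 0. In 7 genes the groups do not overlap, and in Slc25a48 they do.

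Slc25a20, the carnitine-acylcarnitine carrier through which fatty acids enter the mitochondrial matrix, showed the largest fold change of the called carriers. Its level was 84.9, 90.0 and 80.7 CPM in retinoic acid libraries 1 to 3, against 37.8, 50.8 and 38.8 CPM in vehicle libraries 1 to 3. Every retinoic acid library lay above every vehicle library. The gene (ENSMUSG00000032602, mm10 chromosome 9, 108662098 to 108684641) averaged 85.2 ± 4.66 CPM with retinoic acid and 42.5 ± 7.20 CPM with vehicle (SD, n = 3 each). This was a 2.00-fold increase (log2 fold change 1.00, SE 0.10, edgeR adjusted p = 1.58e-05), and the log2 fold change stayed between 0.92 and 1.15 when single libraries were left out. Measured per length, Slc25a20 held rank 12 of the 52 family genes with retinoic acid and rank 19 with vehicle.

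Companions of Slc25a20 in fatty acid transfer and oxidation were read from a list of 20 genes, all tested. In it 6 were higher and none lower, 30.0% beside the 9.46% of all genes, and the median log2 fold change was 0.21. Cpt1a, which makes long-chain acylcarnitines on the outer membrane, had 239 ± 14.4 CPM with retinoic acid and 146 ± 2.22 CPM with vehicle (SD, n = 3 each) and rose 1.64-fold (adjusted p = 3.37e-06). Cpt2, which turns them back into acyl-CoA inside, had 124 ± 6.61 CPM with retinoic acid and 89.5 ± 7.39 CPM with vehicle (SD, n = 3 each) and rose 1.39-fold. Hadha and Acaa2, of the oxidation spiral, rose 1.52-fold and 1.53-fold, and Acadl, an acyl-CoA dehydrogenase, rose 1.62-fold (adjusted p = 0.000197). Etfb, part of the flavoprotein that passes electrons from these dehydrogenases to the respiratory chain, rose 1.40-fold. All 6 stayed called whichever library was left out. Acadm and Hadh, also of the oxidation spiral, had every retinoic acid library below every vehicle library. They were not called (log2 fold changes −0.17 and −0.15, edgeR adjusted p = 0.195 and 0.140). Acads, Echs1 and Eci1 overlapped between the groups and were not called. Slc22a5, the plasma membrane carnitine importer, had 43.9 ± 1.95 CPM with retinoic acid and 39.3 ± 2.82 CPM with vehicle (SD, n = 3 each) and was not called, and neither was the carnitine acetyltransferase gene Crat (log2 fold change −0.27, adjusted p = 0.181).

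Of the carriers that exchange ADP for ATP or bring in phosphate, Slc25a4 was higher. Slc25a4, known as ANT1 and abundant in heart and muscle, had 63.4, 64.5 and 51.4 CPM in retinoic acid libraries 1 to 3, against 39.1, 45.6 and 34.7 CPM in vehicle libraries 1 to 3. All retinoic acid libraries were above all vehicle libraries. The gene (ENSMUSG00000031633, mm10 chromosome 8, 46206797 to 46211284) rose 1.5-fold (log2 fold change 0.58, SE 0.11, edgeR adjusted p = 0.00293). Slc25a5, or ANT2, the form of proliferating cells, had 609 ± 7.77 CPM with retinoic acid and 594 ± 15.3 CPM with vehicle (SD, n = 3 each) and was not called (log2 fold change 0.03, SE 0.05). Of the summed level of both genes per kilobase of exon, Slc25a4 made up 6.22%, 6.47% and 5.15% in retinoic acid libraries 1 to 3 and 4.14%, 4.58% and 3.67% in vehicle libraries 1 to 3. These shares did not overlap, and the two-sided exact permutation test gave p = 0.1, the smallest value that 3 against 3 libraries allow. Slc25a4 was already called in these libraries, so its share restates that result and is no separate support. A processed copy of Slc25a5, Gm5560, is 98.3% identical over 887 bases, so reads of Slc25a5 may be shared with it. Slc25a31, the ADP/ATP carrier of testis, had 0 reads over the retinoic acid libraries and 1 over the vehicle libraries. A count of 0 allows up to 3 reads over those 3 libraries, for counting error only. Slc25a3, which brings in the phosphate for ATP synthesis, had 480 ± 11.1 CPM with retinoic acid and 467 ± 21.7 CPM with vehicle (SD, n = 3 each) and was not called (log2 fold change 0.04, SE 0.06).

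The calcium-regulated carriers exchange ATP-Mg for phosphate and so set the adenine nucleotide content of the matrix. Among them Slc25a24 was higher and Slc25a23 lower. Slc25a24 (mm10 chromosome 3, 109123149 to 109168457) had 186, 157 and 175 CPM in retinoic acid libraries 1 to 3, against 152, 138 and 140 CPM in vehicle libraries 1 to 3, with no overlap. It rose 1.21-fold (log2 fold change 0.27, SE 0.07, edgeR adjusted p = 0.0278), and the call was lost without retinoic acid library 1 or without vehicle library 2 or 3 (adjusted p up to 0.165). Slc25a23 (mm10 chromosome 17, 57043711 to 57059863) had 27.4, 28.7 and 28.0 CPM in retinoic acid libraries 1 to 3, against 34.7, 43.4 and 34.3 CPM in vehicle libraries 1 to 3, and vehicle library 2 was the highest. Its log2 fold change was −0.42 (SE 0.10, edgeR adjusted p = 0.0151), and it was not called without retinoic acid library 1 or vehicle library 2 (−0.30 without the vehicle library, adjusted p = 0.0852). An antisense gene, Gm17168, overlaps its exons. Slc25a25, the third of these carriers, had 47.6 ± 2.67 CPM with retinoic acid and 50.6 ± 0.580 CPM with vehicle (SD, n = 3 each) and was not called. Of the summed level of the 3 genes per kilobase, Slc25a24 made up 71.6 ± 2.13% with retinoic acid and 64.1 ± 2.33% with vehicle, and Slc25a23 made up 11.9 ± 1.00% with retinoic acid and 17.1 ± 2.28% with vehicle (SD, n = 3 each). Each share gave p = 0.1 in the two-sided exact permutation test. Both genes were already called in these libraries, and the shares have a common denominator. They restate those calls and are no separate support. Slc25a41, a relative without the calcium-binding part, had 1 read over the retinoic acid libraries and 2 over the vehicle libraries.

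At least 99.9% of the per-length level of the uncoupling protein genes Ucp1 to Ucp3 was that of Ucp2, which is widely expressed and limits the oxidation of glucose-derived carbon. Ucp2 (ENSMUSG00000033685, mm10 chromosome 7, 100493337 to 100502020) had 581, 608 and 611 CPM in retinoic acid libraries 1 to 3, against 468, 529 and 486 CPM in vehicle libraries 1 to 3. The groups did not overlap, and the rise was 1.21-fold (log2 fold change 0.28, SE 0.06, edgeR adjusted p = 0.00734). The call held whichever single library was removed (adjusted p up to 0.0481). Ucp2 is also high in immune cells. Of the 8 immune markers 3 were tested and none was called. Csf1r had 20.8 ± 1.56 CPM with retinoic acid and 21.1 ± 2.17 CPM with vehicle, Itgam 2.79 ± 0.322 CPM with retinoic acid and 1.65 ± 1.21 CPM with vehicle, and Lyz2 0.926 ± 0.242 CPM with retinoic acid and 0.893 ± 0.0735 CPM with vehicle (SD, n = 3 each). The other 5 had too few reads to be tested. The part of immune cells in the Ucp2 result was not tested. Ucp1, which produces heat in brown fat, had 1 read over the retinoic acid libraries and 0 over the vehicle libraries, where a count of 0 allows up to 3. Brown adipocyte markers summed to 113 to 124 CPM with retinoic acid and 122 to 133 CPM with vehicle, mostly Prdm16 and Pparg, and Cidea, Adipoq, Plin1 and Dio2 had too few reads to be tested. Ucp3, the form of skeletal muscle and the neighbour of Ucp2 on the chromosome, had 3 reads over the retinoic acid libraries and 9 over the vehicle libraries. The related genes Slc25a14, Slc25a27 and Slc25a30 lay between 2.30 and 7.13 CPM on average with retinoic acid and between 2.08 and 6.85 CPM with vehicle, and none was called. Ucp2 shares 305 bases of exon with Dnajb13 on the other strand, and that gene had 28 reads in all beside 57893 for Ucp2.

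Among carriers of citrate-cycle acids Slc25a10 was higher. Slc25a10 (mm10 chromosome 11, 120491840 to 120499187), which exchanges malate or succinate for phosphate, had 178, 186 and 198 CPM in retinoic acid libraries 1 to 3, against 150, 163 and 167 CPM in vehicle libraries 1 to 3, with no overlap. The rise was 1.17-fold (log2 fold change 0.23, SE 0.07, edgeR adjusted p = 0.0420), and the call held without vehicle library 3 but was lost without each of the other 5 (adjusted p up to 0.174). An antisense gene, Gm11788, overlaps its exons and had 2238 reads in all beside 18364 for Slc25a10; whether counting used strand is not given in the sources used here. Slc25a1 exports the citrate used for fatty acid and sterol synthesis. It had 410 ± 8.58 CPM with retinoic acid and 365 ± 33.4 CPM with vehicle (SD, n = 3 each). The lowest retinoic acid library, at 400.6 CPM, was just above the highest vehicle library, at 400.3 CPM. The gene was not called (log2 fold change 0.17, adjusted p = 0.139). Leaving out that vehicle library, number 2, gave a log2 fold change of 0.24 (adjusted p = 0.0470). Slc25a11, the oxoglutarate-malate carrier, had a log2 fold change of −0.05 (SE 0.06). Slc25a21, which carries oxoadipate, had 3 reads over the retinoic acid libraries and 1 over the vehicle libraries.

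**Figure D2:**
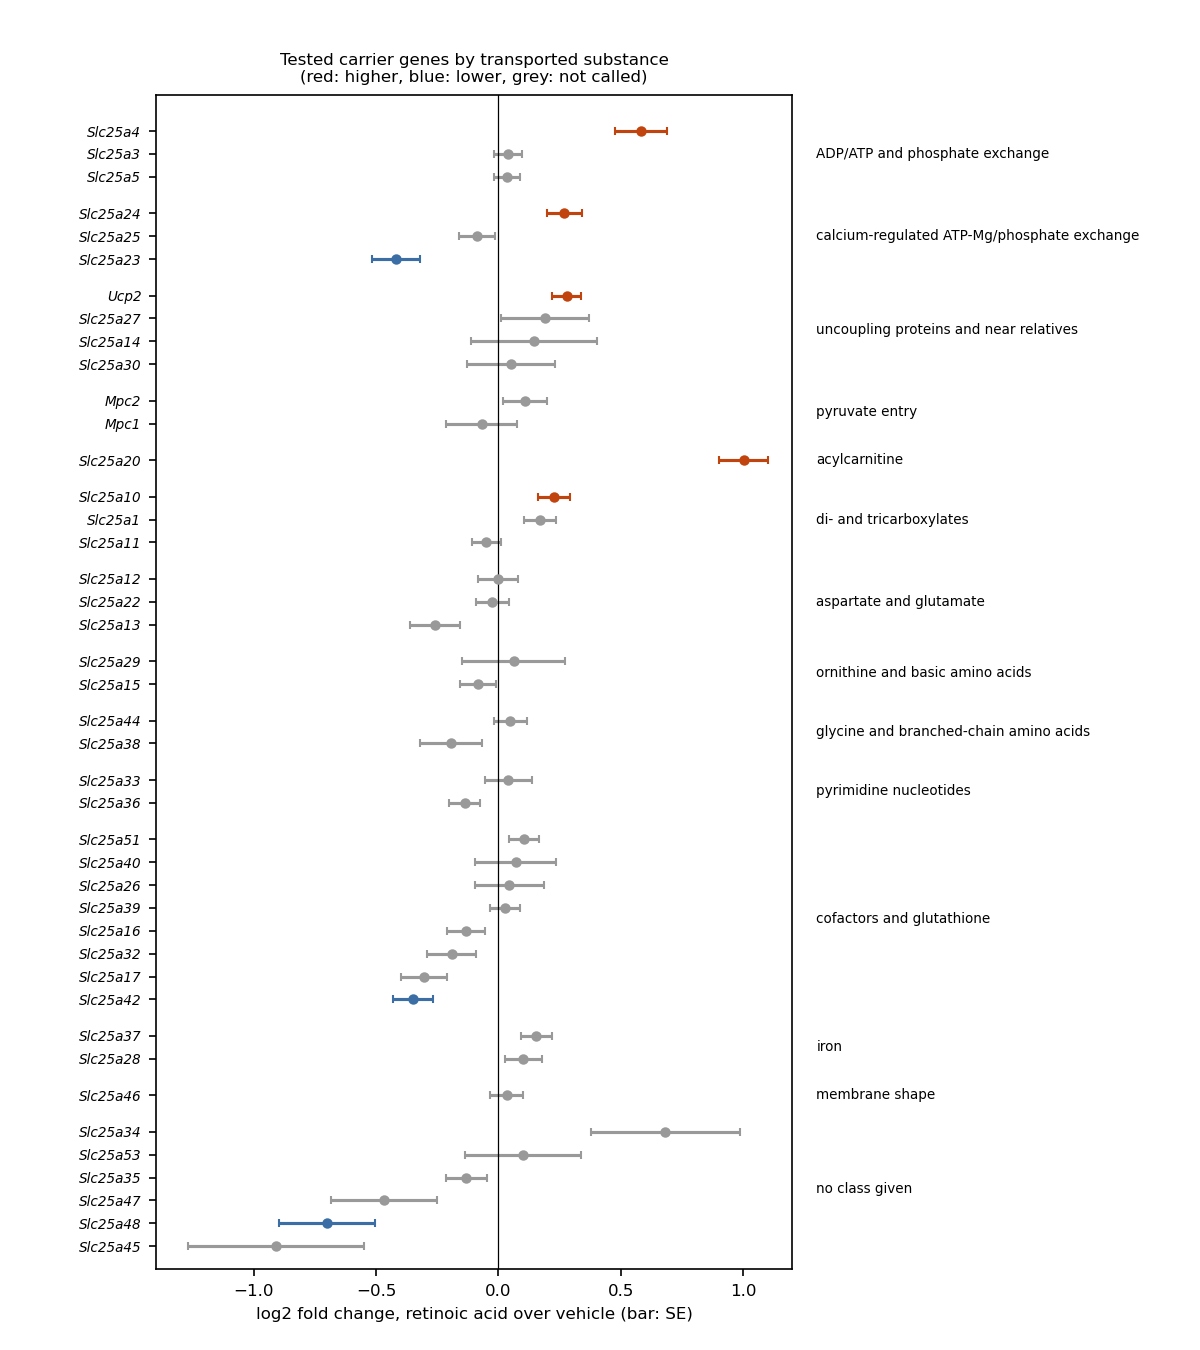
Log2 fold change of the tested family genes, 1 of the 43 not drawn, retinoic acid over vehicle, with the SE from edgeR, grouped by the substance carried (red higher, blue lower, grey not called). Slc25a20 stands at 1.00 and Slc25a4 at 0.58, and Slc25a24 and Slc25a23 of one group lie at 0.27 and −0.42.

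In the list of shuttle and citrate cycle enzymes 2 of 24 tested genes were higher and none lower, 8.33% beside the 9.46% of all genes. Me1, the cytosolic malic enzyme, rose 1.67-fold (edgeR adjusted p = 9.94e-05). Idh1, the cytosolic isocitrate dehydrogenase, rose 1.47-fold (edgeR adjusted p = 1.79e-05). Both make NADPH, as do their mitochondrial relatives Me3 and Idh2, which were not called. Me3 had a log2 fold change of 0.55 (edgeR adjusted p = 0.241) and Idh2 of −0.19 (edgeR adjusted p = 0.239). The malate-aspartate shuttle enzyme genes Got1, Got2, Mdh1 and Mdh2 had log2 fold changes of 0.19, 0.10, 0.01 and −0.03 and were not called, and neither was the ATP-citrate lyase gene Acly (−0.13), whose substrate Slc25a1 delivers.

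Both subunits of the pyruvate carrier were measured. Mpc2 had 48.7, 55.6 and 53.8 CPM in retinoic acid libraries 1 to 3, against 42.9, 50.6 and 53.0 CPM in vehicle libraries 1 to 3, with overlap (adjusted p = 0.548). Mpc1 had 8.67 ± 0.860 CPM with retinoic acid and 9.13 ± 1.03 CPM with vehicle (SD, n = 3 each) and was not called. Its level is uncertain, because a pseudogene row, Mpc1-ps, held 8493 reads in all beside 940 for Mpc1, and their transcripts are identical over 261 bases. In the list of pyruvate-using enzymes 2 of 13 tested genes were higher and none lower, 15.4% beside the 9.46% of all genes. Pcx, pyruvate carboxylase, had 43.1 ± 5.94 CPM with retinoic acid and 28.1 ± 1.71 CPM with vehicle (SD, n = 3 each) and rose 1.53-fold (edgeR adjusted p = 0.00164). The other was Pdk4, the kinase that shuts down pyruvate dehydrogenase, at 2.46 ± 0.353 CPM with retinoic acid and 0.102 ± 0.0380 CPM with vehicle (SD, n = 3 each). Pdha1, the catalytic subunit of that dehydrogenase, was not called (log2 fold change 0.13, adjusted p = 0.347).

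Carriers of aspartate and glutamate were not called in the main edgeR fit, DESeq2 or limma-voom. Of all 13700 tested genes 2960 had an unadjusted p under 0.05, and of the 3 tested here 1 did. That was Slc25a13, or citrin, the aspartate-glutamate carrier of liver and other epithelia, with 29.2, 30.8 and 23.3 CPM in retinoic acid libraries 1 to 3, against 33.6, 33.8 and 32.2 CPM in vehicle libraries 1 to 3. The groups did not overlap (log2 fold change −0.26, SE 0.10, adjusted p = 0.149). Its relative Slc25a12, or aralar, had 35.9 ± 1.23 CPM with retinoic acid and 36.0 ± 2.24 CPM with vehicle (SD, n = 3 each). The glutamate carrier gene Slc25a22 had 83.5 ± 3.77 CPM with retinoic acid and 85.0 ± 4.45 CPM with vehicle (SD, n = 3 each). The other glutamate carrier gene, Slc25a18, had 9 reads over the retinoic acid libraries and 8 over the vehicle libraries.

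Among carriers of basic amino acids, Slc25a15, which exchanges ornithine for citrulline, had 91.3 ± 6.19 CPM with retinoic acid and 96.8 ± 6.37 CPM with vehicle (SD, n = 3 each) and was not called. Slc25a29, a carrier of basic amino acids, averaged 4.40 CPM with retinoic acid and 4.18 CPM with vehicle. Slc25a2, the other ornithine carrier, had 9 reads over the retinoic acid libraries and 17 over the vehicle libraries. Of 17 tested enzymes of ornithine, proline, glutamate and urea handling, 1 was higher and 2 lower with retinoic acid, 17.6% beside the 9.46% of all genes. Of the lower ones, Oat, ornithine aminotransferase, had 394 ± 47.0 CPM with retinoic acid and 570 ± 17.2 CPM with vehicle (SD, n = 3 each; log2 fold change −0.53, SE 0.08, edgeR adjusted p = 0.000416). Cps1, which makes carbamoyl phosphate for citrulline synthesis, rose 1.43-fold (adjusted p = 0.0215), and this call held without retinoic acid library 3 but was lost without each of the other 5 (adjusted p up to 0.101) and in DESeq2.

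Among carriers of cofactors, Slc25a42, which brings coenzyme A into the matrix, was lower. The gene (mm10 chromosome 8, 70184340 to 70212305) had 29.8, 28.5 and 27.8 CPM in retinoic acid libraries 1 to 3, against 34.5, 37.9 and 37.4 CPM in vehicle libraries 1 to 3, with no overlap (log2 fold change −0.35, SE 0.08, edgeR adjusted p = 0.0148). The call was lost without retinoic acid library 2 or vehicle library 2 (adjusted p up to 0.0714). Slc25a17, which carries cofactors into peroxisomes, had 41.4, 33.9 and 32.8 CPM in retinoic acid libraries 1 to 3, against 46.5, 44.3 and 42.8 CPM in vehicle libraries 1 to 3. These did not overlap, but the gene was not called (log2 fold change −0.30, adjusted p = 0.0619). Leaving out retinoic acid library 1 gave −0.42 (adjusted p = 0.0187), and testing without the filter on low counts gave −0.29 (adjusted p = 0.0228). Slc25a39, a mitochondrial glutathione importer, had 174 ± 3.35 CPM with retinoic acid and 171 ± 9.01 CPM with vehicle (SD, n = 3 each). Slc25a16 had 51.3 to 52.4 CPM in the retinoic acid libraries and 53.4 to 62.3 CPM in the vehicle libraries, apart but not called (adjusted p = 0.352). The S-adenosylmethionine carrier Slc25a26, the folate and FAD carrier Slc25a32 and Slc25a40, a relative of Slc25a39, had log2 fold changes between −0.19 and 0.07 and were not called. The NAD carrier gene Slc25a51, listed under an older symbol, had 177 ± 7.99 CPM with retinoic acid and 165 ± 6.88 CPM with vehicle (SD, n = 3 each; adjusted p = 0.362).

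Among the mitoferrins, which import iron for haem and iron-sulfur clusters, Slc25a37 had 218, 190.7 and 210 CPM in retinoic acid libraries 1 to 3, against 190.6, 179 and 187 CPM in vehicle libraries 1 to 3. The groups were just apart (log2 fold change 0.15, adjusted p = 0.171) and the gene was not called. Gm16867, Gm31748 and Gm37847, which have no row of counts, are identical to Slc25a37 over 381 to 382 bases, so its reads may be shared with them. Slc25a28 overlapped between the groups (log2 fold change 0.10, adjusted p = 0.506). Slc25a38, linked to glycine import for haem, had a log2 fold change of −0.19 (SE 0.13), and Slc25a44, which carries branched-chain amino acids, 0.05 (SE 0.07). None of 19 tested enzymes of iron-sulfur cluster and haem synthesis was called in the main edgeR fit, DESeq2 or limma-voom. An unadjusted p under 0.05 was found in 1 of them, and in 2960 of all 13700 tested genes. Of the pyrimidine nucleotide carriers, Slc25a36 had 127 ± 6.60 CPM with retinoic acid and 140 ± 5.90 CPM with vehicle (SD, n = 3 each), without overlap and not called (adjusted p = 0.227). A processed copy, Gm13217, is 99.6% identical to it over 544 bases. The other, Slc25a33, had a log2 fold change of 0.04. Slc25a46, an outer membrane relative that acts in mitochondrial shape, had 89.5 ± 3.68 CPM with retinoic acid and 87.5 ± 4.44 CPM with vehicle (SD, n = 3 each).

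Slc25a48 (mm10 chromosome 13, 56438355 to 56474239), for which choline import has been reported, had 39.8, 44.1 and 74.9 CPM in retinoic acid libraries 1 to 3, against 81.0, 69.1 and 109 CPM in vehicle libraries 1 to 3. Library 3 was the highest of each group, and retinoic acid library 3 lay above vehicle library 2. The log2 fold change was −0.70 (SE 0.20, edgeR adjusted p = 0.0379). The call was lost in DESeq2 (adjusted p = 0.279) and without retinoic acid library 1 or 2 or vehicle library 1 or 3 (adjusted p up to 0.162), and leaving out retinoic acid library 3 gave a log2 fold change of −1.04. In the authors' deposited table, Slc25a48 has an FDR of 0.419, and the other 7 called carriers have an FDR under 0.05 with the same sign. Slc25a34, with no substrate given here, had 5.86, 7.46 and 8.14 CPM in retinoic acid libraries 1 to 3, against 2.37, 3.61 and 7.50 CPM in vehicle libraries 1 to 3. Vehicle library 3 lay within the retinoic acid range, and the gene was not called (log2 fold change 0.68, adjusted p = 0.208). Leaving out that library gave a log2 fold change of 1.25 (adjusted p = 0.00454), and testing without the filter on low counts gave 0.69 (adjusted p = 0.00559). Slc25a45 and Slc25a47 were scarce, with every retinoic acid library below every vehicle library, and were not called. Slc25a45 had 0.718 ± 0.190 CPM with retinoic acid and 1.37 ± 0.106 CPM with vehicle, and Slc25a47 had 2.80 ± 0.374 CPM with retinoic acid and 3.90 ± 0.202 CPM with vehicle (SD, n = 3 each). Slc25a35 had a log2 fold change of −0.13 and Slc25a53 of 0.10, both uncalled. Rangrf, on the other strand, is identical to Slc25a35 over 547 bases and had 711 reads in all beside 3780 for Slc25a35. Slc25a43 had 11 reads over the retinoic acid libraries and 8 over the vehicle libraries. Slc25a54 had 0 reads over the retinoic acid libraries and 1 over the vehicle libraries.

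**Figure D3:**
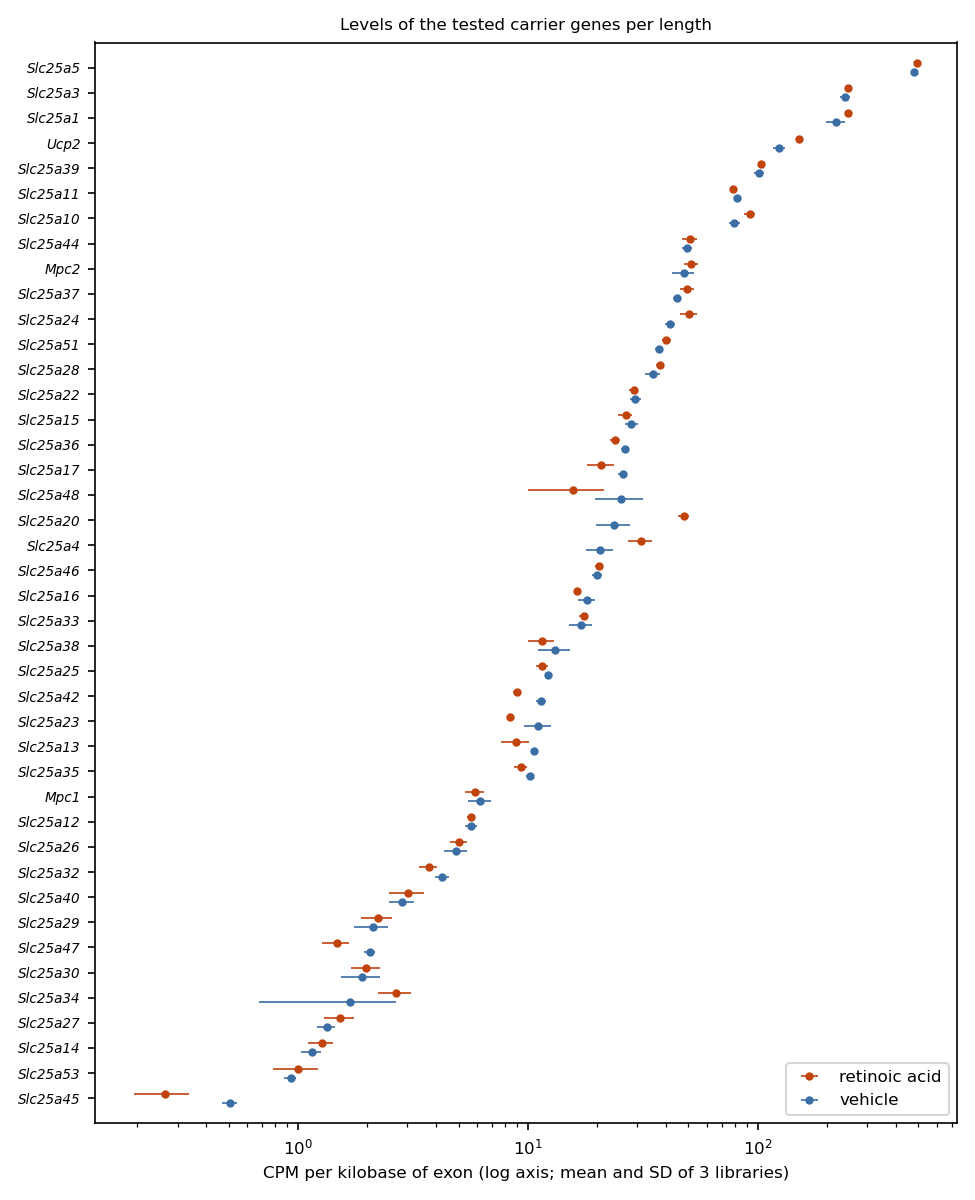
Level of the tested family genes, 1 of the 43 not drawn, in CPM per kilobase of exon on a log axis, mean and SD of 3 libraries, retinoic acid in red and vehicle in blue, ordered by the vehicle level. Slc25a5 is at the top, at 491 with retinoic acid and 479 with vehicle, and Slc25a45 at the bottom.

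Levels were set side by side per length, as CPM per kilobase of GENCODE vM21 exon, which depends on the gene model. Slc25a5 led with 491 ± 6.26 with retinoic acid and 479 ± 12.3 with vehicle (SD, n = 3 each), which was 24.0% of the summed per-length level of the 52 genes with retinoic acid and 24.8% with vehicle. Slc25a3 and Slc25a1 followed with 246 ± 5.71 and 246 ± 5.15 with retinoic acid (SD, n = 3 each), which did not differ beyond their spread. With vehicle, Slc25a3 was at 240 ± 11.1 (SD, n = 3) and Slc25a1 at 201, 240 and 216 in libraries 1 to 3. Ucp2 came next in both groups, at 151 ± 4.15 with retinoic acid and 124 ± 7.88 with vehicle (SD, n = 3 each). These 4 genes together made up 55.6% of the summed per-length level with retinoic acid and 55.0% with vehicle. Slc25a4 held rank 15 with retinoic acid and rank 20 with vehicle, and Slc25a48 rank 23 with retinoic acid and rank 18 with vehicle. Summed over the 47 genes and not divided by length, the family took 4241 ± 46.1 CPM with retinoic acid and 4013 ± 112 CPM with vehicle (SD, n = 3 each), a ratio of 1.06. Every retinoic acid library was above every vehicle library. Without the 8 called genes the sums were 3026 ± 42.4 CPM with retinoic acid and 2972 ± 71.7 CPM with vehicle (SD, n = 3 each), and they overlapped. The 8 were picked by their difference in these same libraries. This overlap therefore does not show that the other genes were unchanged.

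**Figure D4:**
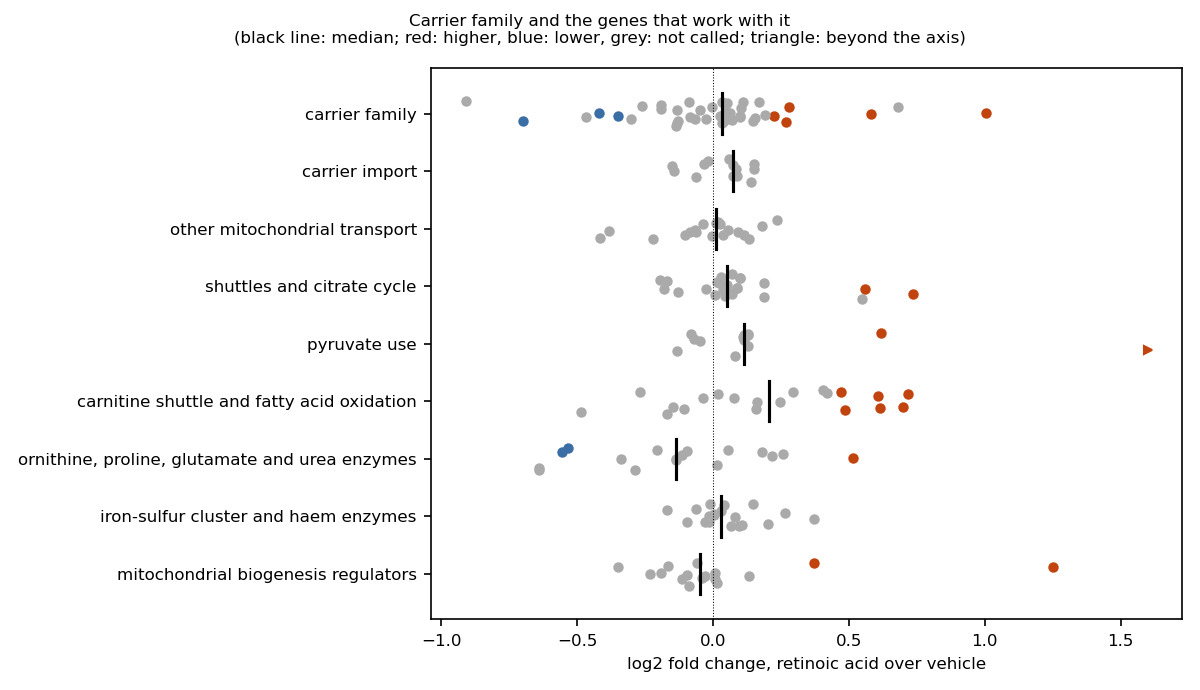
Log2 fold changes, retinoic acid over vehicle, of the tested carrier genes and of 8 lists of genes that work with them, 1 point a gene and a black line at the median. The fatty acid oxidation list has its median at 0.21, and the triangle marks Pdk4, at 4.50 beyond the axis.

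The machinery that brings carriers into the inner membrane, and regulators of mitochondrial content, were read from lists in the same way. The 13 tested genes of carrier import include the TOM receptors, the small TIM chaperones and the TIM22 translocase. None was called in the main edgeR fit, DESeq2 or limma-voom. An unadjusted p under 0.05 was found in 2 of them, and in 2960 of all 13700 tested genes. The median log2 fold change of the import genes was 0.07. None of 19 tested genes of other mitochondrial transport (VDAC pores, sideroflexins, the calcium uniporter and ABC exporters) was called in the main edgeR fit. Of them 5 had an unadjusted p under 0.05, and DESeq2 and limma-voom called 1 each. Vdac1 had 508 ± 22.7 CPM with retinoic acid and 469 ± 15.6 CPM with vehicle (SD, n = 3 each). Of 16 tested regulators of mitochondrial biogenesis 2 were higher and none lower, 12.5% beside the 9.46% of all genes. Ppara, the fatty acid-sensing receptor that drives oxidation genes, had 9.67 ± 0.743 CPM with retinoic acid and 4.06 ± 0.233 CPM with vehicle (SD, n = 3 each) and rose 2.38-fold (edgeR adjusted p = 0.000139). Ppargc1b, a coactivator, rose 1.29-fold (adjusted p = 0.0278), a call that was lost without retinoic acid library 1 or 2 or vehicle library 1 or 2 (adjusted p up to 0.143). Its relative Ppargc1a was not called (log2 fold change −0.23, adjusted p = 0.139), nor was Tfam, the mitochondrial DNA packaging factor (−0.17, adjusted p = 0.196).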

How the data were processed

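The submitters' processing notes name the mm10 genome build. For aligner, gene annotation, strand setting and treatment of multiply matching reads, nothing is given in the sources used here. Raw read counts per gene for 6 libraries were deposited in 1 table. It also holds the authors' p-value, FDR and plain and shrunken log2 fold changes from DESeq, per the file headers. Current symbols came from gene IDs (21102 of 21534 rows matched). Replicates of a group differed by a chi-square of 4.09 to 11.1 per row, above sampling noise, so each library counted once.

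The deposited counts were fitted in edgeR 4.0.16 (R 4.3.3): filterByExpr (13700 genes kept), TMM scaling (factors 0.978 to 1.023) and a two-sided quasi-likelihood test with treatment as the only term on all 6 libraries, with Benjamini-Hochberg adjustment over all tested genes. The SE is the log2 fold change divided by the square root of F. The scripts were tested on simulated data. There the edgeR test called 62 of 100 genes changed 1.5-fold and 88 of 100 changed 2-fold, and 10 of its 160 calls were of unchanged genes. A gene that was not called may therefore still have changed. Alternatives were DESeq2 size factors, no filter, a filter of 10 counts, DESeq2 1.42.0, limma-voom (limma 3.58.1), a replicate block and leaving out each library. Near-identical copies were sought with BLAST 2.17.0 (at least 97% identity over 200 bases).

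The members and lists were chosen with earlier results of these data known. Named genes are all called members, the highest member of each transport class, members too scarce to test and up to 4 called genes of each companion list. Other genes were named after their values were seen. A few genes that count in the totals are not reported here by name.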

Additional observations from a re-analysis of the deposited data

How the results depend on the processing

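Slc25a20, Slc25a4 and Ucp2 stayed higher and called under every alternative run. Slc25a24, Slc25a10, Slc25a23 and Slc25a42 stayed called under the 6 that keep all libraries, and Slc25a48 under 5 of them. Reads limit the scarce members: 8 of the 47 could not be tested.

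With 1 library left out in turn, all genes gave 443 to 978 higher and 289 to 787 lower, and the carriers 3 to 5 higher and 1 to 3 lower. The lists gave, higher and lower, 0 to 1 and 0 to 1 for other mitochondrial transport, 6 to 7 and 0 to 1 for fatty acid oxidation, 0 to 3 and 2 to 3 for ornithine and urea enzymes, and 1 to 2 and 0 to 1 for biogenesis regulators. Higher only, pyruvate use gave 2 to 4 and iron-sulfur and haem enzymes 0 to 1. Without the filter, 6 carriers were higher and 4 lower (Slc25a34 and Slc25a17 were added), ornithine and urea enzymes had 2 higher and 4 lower and other transport 1 higher. DESeq2 called 0 ornithine and urea enzymes higher and 1 gene of other transport higher, and limma-voom likewise called 1 gene of other transport higher. The cause was not tested.

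The deviations of same-numbered libraries from their group means correlated at 0.128, 0.0975 and 0.257 for numbers 1, 2 and 3, and every library correlated best with its own number, a hint from the data. The labels give no batch and do not say whether the numbers pair the libraries, so the main fit had no block. Taking the numbers as pairs from the data needed every correlation over 0.1. Only number 2, at 0.0975, fell short, so the use of the unpaired calls in the Results also rests on this cut-off. With the replicate number as a block, 1224 genes were higher and 1052 lower, and 8 carriers higher and 5 lower (Slc25a1, Slc25a34 and Slc25a37, and Slc25a13 and Slc25a17, were added). The block gave 1 higher for carrier import, 2 and 2 for other transport, 1 lower for shuttles and the citrate cycle, 2 lower for fatty acid oxidation, 4 and 5 for ornithine and urea enzymes, 1 higher for iron-sulfur and haem enzymes and 2 lower for biogenesis regulators.

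Members that were not called changed sign around 0. Slc25a12 had log2 fold changes of 0.0065 without the filter and 0.0016 in DESeq2. Over the left-out libraries the ranges were −0.0011 to 0.059 for Slc25a3, −0.058 to 0.016 for Slc25a22, −0.036 to 0.051 for Slc25a12, −0.018 to 0.055 for Slc25a39, −0.067 to 0.16 for Slc25a40, −0.025 to 0.15 for Slc25a26, −0.014 to 0.089 for Slc25a44, −0.048 to 0.19 for Slc25a29, −0.048 to 0.11 for Slc25a33, −0.15 to 0.011 for Mpc1 and −0.083 to 0.18 for Slc25a30.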
